A study of Mus musculus with 6 samples.

Results

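M phase is the stage of the cell cycle in which chromosomes condense, attach to a spindle and are pulled apart, and the genes that start it, check it and end it were measured in testes of Nxf2 knockout mice. The genes were chosen by name: 45 cyclins, kinases, phosphatases, spindle checkpoint genes, subunits and regulators of the anaphase-promoting complex (APC/C) and kinetochore genes. Of the 45, 44 had a probe set annotated to that gene alone and were measured, and Ccnb1 was not analysed here. Each gene was read from 1 probe set, the one with the highest mean signal over all arrays. They stand among 12971 genes tested in the same way.

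The study compared whole testes of Nxf2 knockout (KO) mice with those of wild-type (WT) mice, all at postnatal day 21, on 1-colour arrays with 3 samples per genotype. Nxf2, on the X chromosome, belongs with Nxf1 to the family of mRNA export receptors and is active in germ cells. The labels give neither the strain nor the targeted allele, nor is the number of animals behind a sample stated. P-values therefore measure the spread between these samples only. By this age the first round of sperm formation has produced spermatogonia, which divide by mitosis, spermatocytes, which are in or near the meiotic divisions, and the first spermatids, which no longer divide.

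In a dividing cell, cyclins A and B switch on the kinase Cdk1, Cdc25 phosphatases remove the inhibitory phosphates that Wee1 and Pkmyt1 place on it, and Polo and Aurora kinases build the spindle. The spindle checkpoint then holds back the APC/C until every chromosome is attached, after which the APC/C marks securin and the cyclins for destruction and the chromatids separate. Male germ cells use most of this machinery in both mitosis and meiosis, and add forms of their own. Ccna1 is a cyclin A of meiotic spermatocytes, needed in the mouse for the meiotic divisions of males, while Ccna2 is the cyclin A of mitotic cells. Aurkc is a germ cell relative of Aurkb, the Aurora kinase of the chromosomal passenger complex.

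The Nxf2 probe set checked the labels, with signals of 116.0, 106.2 and 130.8 in KO testes and 374.3, 340.4 and 385.9 in WT testes. Signal here means the deposited MAS5 value on a linear scale, which every array carries with the same trimmed mean. A gene was called where limma's p, adjusted by Benjamini and Hochberg's method across the 27022 probe sets in the fit, lay under 0.05. Fold changes are on the scale log2(signal + 7), KO minus WT, with limma's standard error (SE), and group values are means ± SD with n = 3 each. All 44 measured genes passed the filter on dim probe sets, with mean signals between 81.3 and 1755. Their median signal was 496.9, against 243.3 over all tested genes, and signals of different probe sets are not compared as levels.

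In KO testes 6 of the 44 genes fell and 2 rose. The germ cell forms Ccna1 and Aurkc fell, as did Ccnb2, Aurka, Plk1 and Cdc20, while the mitotic cyclin Ccna2 and the centromere histone Cenpa rose. The changes were moderate, between 1.17-fold for Cdc20 and 1.46-fold for Cenpa. The 6 falls make up 13.6% of the genes, beside 7.37% of all tested genes and 5.23% of all tested probe sets called lower. The 2 rises make up 4.55%, beside 2.98% of all tested genes and 2.26% of all tested probe sets called higher. At an unadjusted p under 0.05, 18.2% of the 44 genes were lower and 11.4% higher, beside 16.4% and 18.5% of all tested genes. The median log2 fold change of the 44 genes was -0.039, against 0.036 over all tested genes.

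The RefSeq promoters of some of the called genes are shown because promoters of M phase genes are known to carry shared short elements. The window is the 250 bases before the gene's start in GRCm38.p6, written 5′ to 3′ on the gene's strand. Capitals mark matches to CCAAT, the binding letters of the factor NF-Y, to TTTGAA, the cell cycle genes homology region (CHR) bound by the MuvB complexes, and to CAGTT, the core letters of Myb family sites. Each was searched on both strands. The genes shown are Ccna1 (chr3:55055056-55055305, minus strand) and Aurkc (chr7:6995135-6995384, plus strand) as the germ cell forms, Ccnb2 (chr9:70421555-70421804, minus strand) and Cdc20 (chr4:118437344-118437593, minus strand) as falling genes used in both kinds of division, and Cenpa (chr5:30666636-30666885, plus strand) as a rising gene.
Ccna1: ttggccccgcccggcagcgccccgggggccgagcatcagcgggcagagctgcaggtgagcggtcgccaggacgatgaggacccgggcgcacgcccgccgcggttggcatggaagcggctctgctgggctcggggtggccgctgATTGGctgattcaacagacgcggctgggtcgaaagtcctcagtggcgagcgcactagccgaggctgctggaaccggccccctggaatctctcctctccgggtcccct
Aurkc: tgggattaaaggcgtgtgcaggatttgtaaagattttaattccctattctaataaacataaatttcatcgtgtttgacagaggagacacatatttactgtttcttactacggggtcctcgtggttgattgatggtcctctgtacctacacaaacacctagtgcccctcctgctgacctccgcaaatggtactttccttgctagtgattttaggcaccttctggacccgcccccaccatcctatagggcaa
Ccnb2: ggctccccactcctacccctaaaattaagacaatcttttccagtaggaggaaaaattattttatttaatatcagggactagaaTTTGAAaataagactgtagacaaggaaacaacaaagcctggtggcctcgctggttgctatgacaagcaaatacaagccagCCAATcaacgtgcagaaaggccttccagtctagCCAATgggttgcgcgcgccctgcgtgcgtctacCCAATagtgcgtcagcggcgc
Cdc20: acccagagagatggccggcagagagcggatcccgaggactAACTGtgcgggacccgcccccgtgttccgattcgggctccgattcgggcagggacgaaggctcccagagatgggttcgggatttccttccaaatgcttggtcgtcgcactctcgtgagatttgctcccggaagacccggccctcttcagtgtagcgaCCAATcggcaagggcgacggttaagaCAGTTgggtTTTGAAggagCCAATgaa
Cenpa: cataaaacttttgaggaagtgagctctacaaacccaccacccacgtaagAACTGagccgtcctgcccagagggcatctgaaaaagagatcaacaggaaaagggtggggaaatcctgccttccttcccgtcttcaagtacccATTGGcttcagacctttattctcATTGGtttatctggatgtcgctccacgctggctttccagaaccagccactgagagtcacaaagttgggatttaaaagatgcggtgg

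These windows differ in their motifs. Cdc20 held CCAAT 2 times, CAGTT 2 times and TTTGAA 1 time, while Aurkc held none of the 3. Ccna1 held CCAAT 1 time and neither of the others, and Ccnb2 held CCAAT 3 times and TTTGAA 1 time. The RefSeq table had a promoter for 38 of the 44 genes, a gene with several starts being counted if any of them held the motif. Of the 38, 26 (68.4%) held CCAAT, 10 (26.3%) held TTTGAA and 14 (36.8%) held CAGTT, beside 33.8%, 16.0% and 39.1% of all 32851 promoter windows of this length in the table. Among the 6 genes that fell, 5 held CCAAT, 2 held TTTGAA and 1 held CAGTT. In the 38 genes 2 pairs of matches overlapped each other. A match is a description of letters, not evidence of binding.

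**Figure D1:**
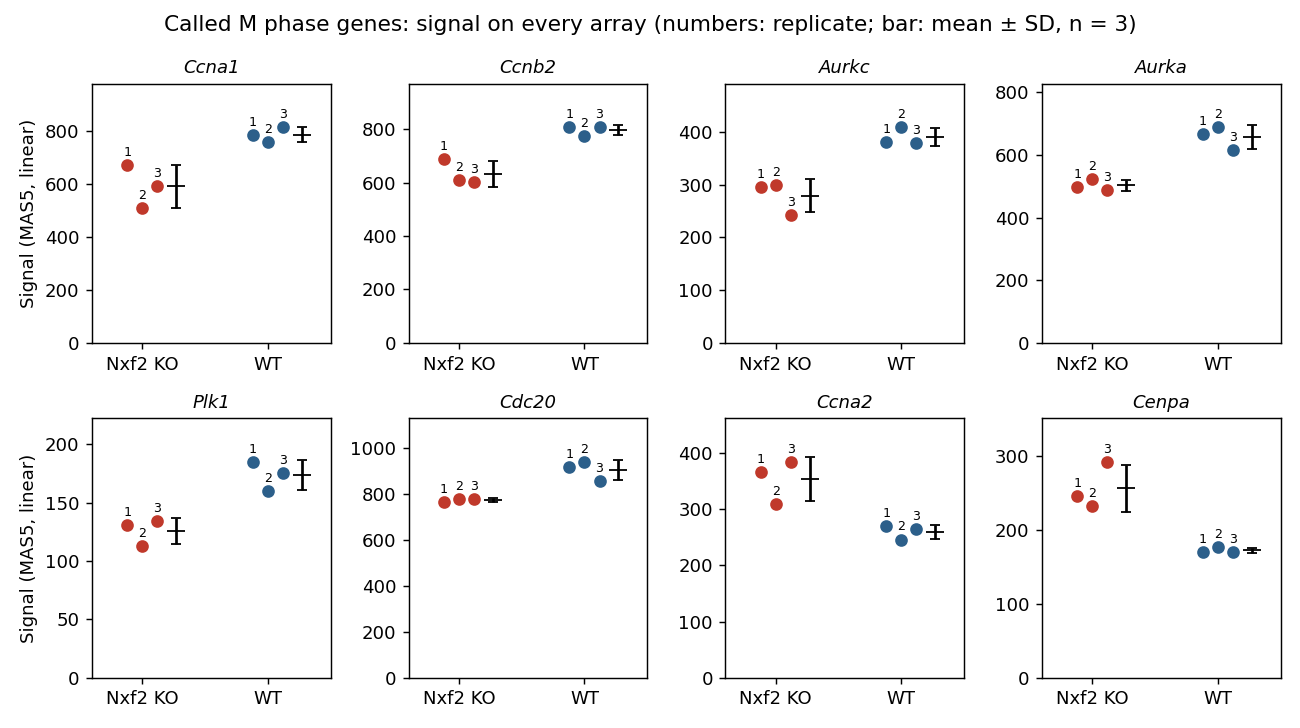
Deposited MAS5 signal (linear, axes from 0) of the 8 called genes on each array, Nxf2 KO in red and WT in blue, with replicate numbers beside the points and bars for the mean ± SD (n = 3). In the first 6 panels every KO array lies below every WT array, and in the panels of Ccna2 and Cenpa every KO array lies above every WT array.

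Among the cyclins, the form of spermatocytes fell and the mitotic form rose. Ccna1 had signals of 672.8, 507.7 and 591.0 in KO testes and 784.1, 757.2 and 815.2 in WT testes. All KO values lay below all WT values, with KO replicate 2 lowest. The log2 fold change was -0.42 ± 0.090 (SE), a 1.33-fold fall (limma, adjusted p = 0.0253). Ccna2 had signals of 365.8, 309.4 and 384.9 in KO testes and 269.5, 246.1 and 264.0 in WT testes, so that the groups again did not overlap. Its log2 fold change was 0.43 ± 0.093 (SE, limma, adjusted p = 0.0257). The other probe set of Ccna2 had a log2 fold change of 0.12 and was not called (limma, adjusted p = 0.372), so the rise rests on 1 of 2 probe sets.

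Of the B-type cyclins Ccnb2 fell and Ccnb3 was not called. Ccnb2, which pairs with Cdk1 in both mitosis and meiosis, had signals of 687.7, 610.1 and 601.4 in KO testes and 807.7, 774.6 and 809.0 in WT testes. Its log2 fold change was -0.33 ± 0.063 (SE, limma, adjusted p = 0.0160). Ccnb3, an X-linked cyclin of early meiotic prophase, had signals of 126.3, 88.0 and 145.4 in KO testes and 114.6, 108.4 and 130.2 in WT testes. Its groups overlapped and its log2 fold change was 0.0010, with a 95% interval of -0.37 to 0.37, the widest of the 44 genes.

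Cdk1 itself and its small Cks subunits were not called. Cdk1 averaged 785.7 ± 16.1 in KO testes and 789.5 ± 27.6 in WT testes, with a log2 fold change of -0.0065 and a 95% interval of -0.12 to 0.11. A Cdk1 change as large as that of Ccna1 or Ccnb2 lies outside this interval. Cks2, which mouse germ cells need to complete meiosis, had a log2 fold change of -0.036 (limma, adjusted p = 0.687). Cks1b averaged 1039.8 ± 45.0 in KO testes and 926.5 ± 32.8 in WT testes, without overlap, and a log2 fold change of 0.16 that did not pass (limma, adjusted p = 0.0746).

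The phosphatases and kinases that set the phosphorylation of Cdk1 were also not called. Cdc25a, the phosphatase of mitotic cells in the comparison of forms, had signals of 226.4, 198.1 and 230.5 in KO testes and 259.2, 235.6 and 245.0 in WT testes. The groups did not overlap, but the log2 fold change of -0.17 did not pass (limma, adjusted p = 0.233). Cdc25c, the meiotic form, had signals of 75.3, 60.7 and 89.3 in KO testes and 96.3, 81.1 and 85.0 in WT testes. These overlapped, with a log2 fold change of -0.21 and a 95% interval of -0.54 to 0.11. Cdc25b averaged 196.4 ± 21.9 in KO testes and 155.3 ± 2.37 in WT testes, with a log2 fold change of 0.32 (limma, adjusted p = 0.0774). The inhibitory kinases Wee1 and Pkmyt1 had log2 fold changes of 0.092 and -0.14 (limma, adjusted p = 0.302 and 0.531).

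Of the Aurora kinases, Aurkc and Aurka fell and Aurkb was not called. Aurkc had signals of 294.6, 299.8 and 243.1 in KO testes and 380.9, 409.6 and 379.0 in WT testes, with KO replicate 3 lowest and no overlap. The log2 fold change of -0.48 ± 0.092 (SE) was the largest fall among the 44 genes (limma, adjusted p = 0.0172). Aurka, the kinase of spindle poles, had signals of 498.0, 523.9 and 489.8 in KO testes and 667.5, 690.2 and 616.8 in WT testes. Its log2 fold change was -0.38 ± 0.063 (SE), with the lowest adjusted p of the 44 genes (limma, adjusted p = 0.0102). Aurkb had signals of 171.1, 186.7 and 189.2 in KO testes and 167.4, 177.3 and 157.2 in WT testes. These overlapped, with a log2 fold change of 0.12 (limma, adjusted p = 0.421).

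The partners of Aurora B and C in the chromosomal passenger complex lay close to WT. Incenp, the scaffold of the complex, Birc5 (survivin) and Cdca8 (borealin) had log2 fold changes of -0.039, -0.031 and -0.074, all with overlapping groups. None of the 3 passed (limma, adjusted p between 0.359 and 0.754), and none had an unadjusted p under 0.05. On these chosen probe sets their 95% intervals, -0.20 at the lowest, do not reach the measured fall of Aurkc. The 95% interval of Aurkc itself was -0.68 to -0.27. On other probe sets, also not called, the intervals ran down to -0.45 for Incenp and -0.36 for Cdca8.

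Of the Polo kinases, Plk1 fell. Plk1, which acts at centrosomes, kinetochores and the midzone, had signals of 130.4, 113.0 and 134.1 in KO testes and 185.1, 159.7 and 175.4 in WT testes. Every KO array lay below every WT array, and the log2 fold change was -0.44 ± 0.11 (SE, limma, adjusted p = 0.0357). Plk4, the kinase that starts centriole duplication, averaged 625.8 ± 31.4 in KO testes and 622.9 ± 6.61 in WT testes on its brightest probe set. Its 3 probe sets disagreed: 1 of the others fell by 0.35 on the log2 scale (limma, adjusted p = 0.0332), and the last had a log2 fold change of -0.24 (limma, adjusted p = 0.176).

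**Figure D2:**
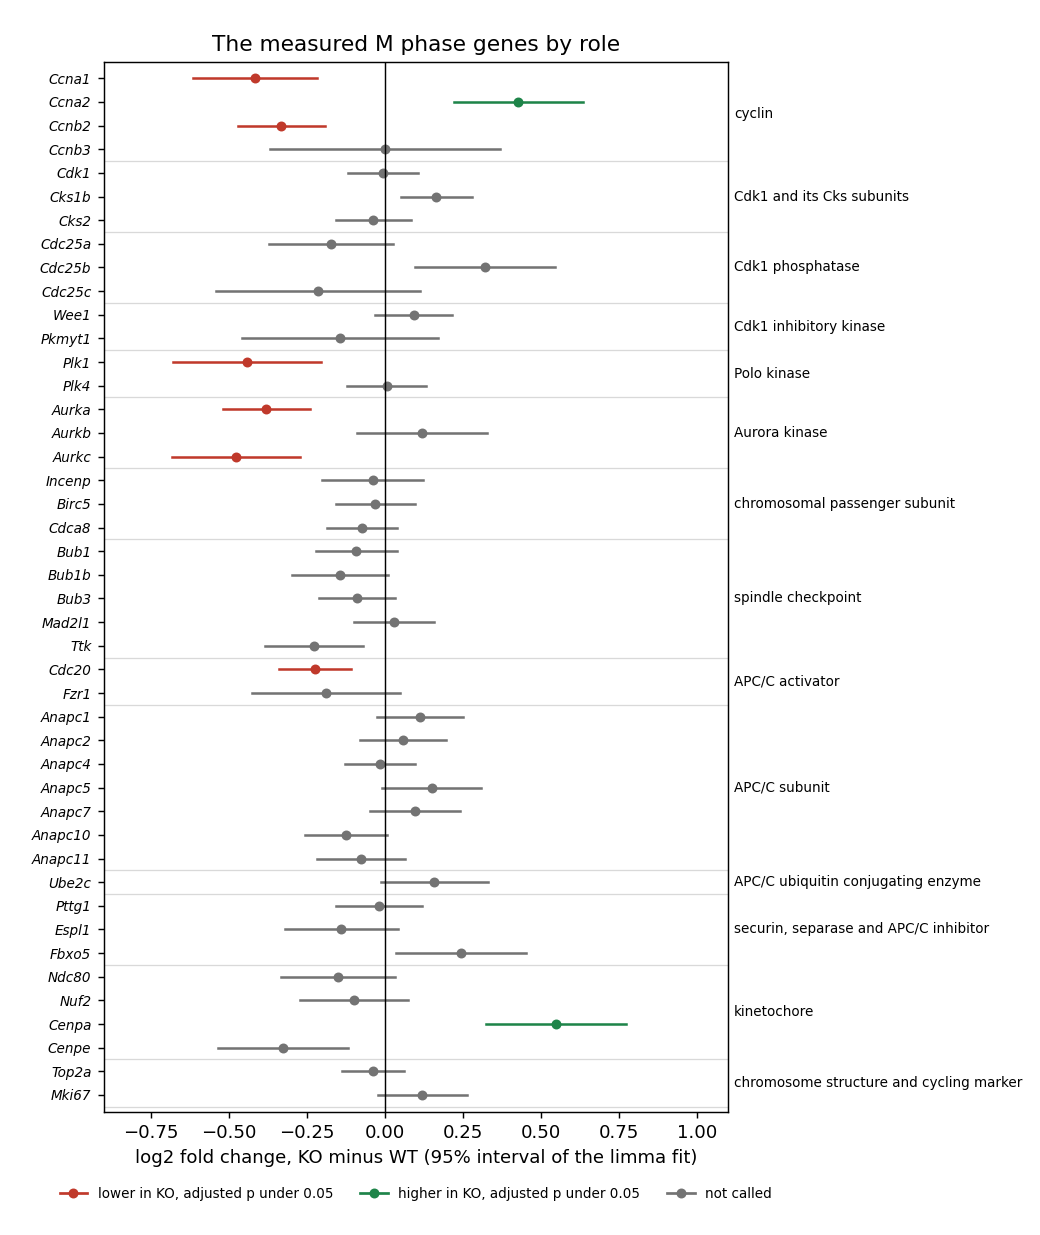
Log2 fold change, KO minus WT, of the 44 measured genes (points) with the 95% interval of the limma fit (lines), grouped by role from the cyclins at the top. Red marks the 6 genes called lower, green the 2 called higher and grey the 36 not called, whose points lie between -0.33 and 0.32.

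Cdc20, which activates the APC/C once the checkpoint is satisfied, had signals of 761.2, 776.3 and 777.5 in KO testes and 916.7, 938.9 and 854.9 in WT testes. The KO values lay within a narrow range below all WT values, and the log2 fold change was -0.22 ± 0.052 (SE, limma, adjusted p = 0.0310). Its other 2 probe sets had log2 fold changes of -0.12 and -0.18 and were not called (limma, adjusted p = 0.207 and 0.113). Fzr1 (Cdh1), the activator that takes over from Cdc20 at the end of M phase, had a log2 fold change of -0.19 with overlapping groups (limma, adjusted p = 0.268).

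No APC/C subunit was called. None of the 7 subunits, Anapc1, Anapc2, Anapc4, Anapc5, Anapc7, Anapc10 and Anapc11, was called by limma, and none had an unadjusted p under 0.05, beside 16.4% lower and 18.5% higher of all tested genes. Their log2 fold changes ran from -0.12 for Anapc10 to 0.15 for Anapc5, with 4 above and 3 below 0. The 95% intervals of all 7 lay between -0.26 and 0.31. Ube2c, the ubiquitin conjugating enzyme of the APC/C, had a log2 fold change of 0.16 (limma, adjusted p = 0.206).

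Securin, separase and an inhibitor of the APC/C were not called either. Pttg1 (securin), which holds separase inactive, averaged 1023.2 ± 87.8 in KO testes and 1034.1 ± 33.4 in WT testes. Espl1, the separase that cuts cohesin, had a log2 fold change of -0.14 (limma, adjusted p = 0.286). Fbxo5 (Emi1), an inhibitor of the APC/C before M phase, averaged 168.3 ± 3.87 in KO testes and 141.2 ± 8.82 in WT testes, without overlap, and did not pass (log2 fold change 0.24, limma, adjusted p = 0.126).

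On the chosen probe sets no spindle checkpoint gene was called by limma, and 1 of the 5 had an unadjusted p under 0.05 (lower, beside 16.4% of all tested genes). That gene was Ttk (Mps1), the kinase that starts checkpoint signalling. It had signals of 416.0, 431.7 and 382.7 in KO testes and 486.0, 499.5 and 458.1 in WT testes, without overlap (log2 fold change -0.23, limma, adjusted p = 0.0746). Bub1, Bub1b and Bub3 had log2 fold changes of -0.091, -0.14 and -0.090, and Mad2l1, which binds and inhibits Cdc20, had one of 0.031 (limma, adjusted p between 0.202 and 0.759). Other probe sets of Bub1 and Bub1b had log2 fold changes of -0.41 and -0.18 without overlap (limma, unadjusted p = 0.0156 and 0.0455). Their adjusted p values were 0.0984 and 0.167, so neither was called. The other probe set of Ttk had a log2 fold change of 0.048 (limma, adjusted p = 0.805). The remaining probe sets of these genes had an unadjusted p over 0.05.

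At the kinetochore Cenpa rose. Cenpa encodes the histone H3 variant that marks centromeres, and had signals of 245.1, 231.3 and 291.8 in KO testes and 170.0, 175.9 and 170.1 in WT testes. Its log2 fold change of 0.55 ± 0.10 (SE) was the largest change in either direction among the 44 genes (limma, adjusted p = 0.0143). The kinetochore motor Cenpe averaged 223.6 ± 23.2 in KO testes and 281.4 ± 11.3 in WT testes, without overlap (log2 fold change -0.33, limma, adjusted p = 0.0617). Its other probe set had a log2 fold change of -0.49 (limma, adjusted p = 0.0538). Ndc80 and Nuf2, which together bind microtubules, had log2 fold changes of -0.15 and -0.099 (limma, adjusted p = 0.255 and 0.425).

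Markers of cycling cells in general were not called. Top2a, the topoisomerase of replicated chromosomes, averaged 912.7 ± 12.6 in KO testes and 937.4 ± 14.5 in WT testes, with a 95% interval of the log2 fold change from -0.14 to 0.060. Mki67 (Ki-67), present in all cycling cells, averaged 621.9 ± 19.2 in KO testes and 572.2 ± 38.0 in WT testes, without overlap (log2 fold change 0.12, limma, adjusted p = 0.245). With array weights Mki67 was called higher (limma, adjusted p = 0.0132). In that fit WT replicate 1, the lowest WT array for Mki67 (528.7), had a weight of 8.37. The other arrays had weights of 0.38 to 1.37.

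These calls changed when single arrays were left out, which also left fewer arrays in the fit. The cause of the changes was not tested. Without WT replicate 1 none of the 44 genes was called. The 8 adjusted p values then lay between 0.0698 and 0.154, while every log2 fold change kept its sign. Without KO replicate 1, KO replicate 2, KO replicate 3, WT replicate 2 and WT replicate 3 the counts of genes called lower were 4, 4, 4, 5 and 4, and those called higher were 1, 2, 1, 1 and 1. Ccnb2, Aurka, Aurkc and Cenpa lost their call without WT replicate 1 alone, whereas Cdc20 was called only without WT replicate 3 and Ccna2 only without KO replicate 2. Ccna1 was also lost without replicate 3 of either genotype (limma, adjusted p = 0.0578 for KO and 0.0636 for WT). Plk1 was also lost without KO replicates 1 or 2 and WT replicate 3 (limma, adjusted p = 0.0639, 0.0937 and 0.0731). Where Cdc20 and Ccna2 were lost, their adjusted p values lay between 0.0558 and 0.137 and between 0.0534 and 0.0947. Fitted without limma's intensity trend, Cenpa alone was called, and without the dim filter Ccnb2, Aurka, Aurkc and Cenpa were. With the replicate number as a block all 8 stayed called. In that fit Ttk and Cenpe were also called lower and Cdc25b higher (limma, adjusted p = 0.0325, 0.0206 and 0.0419). When the probe sets of each gene were averaged, Aurka (adjusted p = 0.406), Cenpa (adjusted p = 0.211), Ccna2 (adjusted p = 0.0535) and Cdc20 (adjusted p = 0.0551) were not called, and Cenpe fell (adjusted p = 0.0141). That average included probe sets too dim to be tested. The other probe set of Aurka was among them, averaging 10.2 in KO testes and 9.04 in WT testes. So were the other probe sets of Cenpa (5.10 and 10.8 in KO testes, 3.57 and 11.7 in WT testes).

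Counting separation without a test, all KO arrays lay below all WT arrays for 12 of the 44 genes (27.3%), beside 18.3% of all tested genes. All KO arrays lay above all WT arrays for 10 of the 44 (22.7%), beside 21.5% of all tested genes. Of the 44 genes 23 had more than 1 tested probe set. In 16 of the 23 the fold changes of all probe sets of the gene had the same sign, and in 7 they did not, among them Plk4, Wee1 and Ttk.

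The meiotic forms were then set against the mitotic ones within each array, as the log2 difference between the 2 probe sets relative to its mean in WT. For Ccna1 against Ccna2 this difference was -0.70, -0.87 and -0.96 in KO testes and -0.054, 0.024 and 0.030 in WT testes. KO was lower by 0.84 ± 0.080 (SE) on the log2 scale, with contributions of both genes in opposite directions. For Aurkc against Aurkb it was -0.43, -0.52 and -0.84 in KO testes and -0.035, -0.011 and 0.046 in WT testes, a KO minus WT difference of -0.60 ± 0.13 (SE). For Cdc25c against Cdc25a it was -0.077, -0.17 and 0.13 in KO testes and 0.061, -0.035 and -0.026 in WT testes, with a difference of -0.041 ± 0.093 (SE) and overlapping groups.

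By the exact permutation test over arrays (two-sided), the first 2 pairs reached p = 0.1, the smallest value that 3 arrays against 3 allow, and the Cdc25 pair had p = 0.8. Adjusted over the 3 pairs these were 0.15, 0.15 and 0.8, so that none passes and the test could not have passed for any. In cyclin A and Aurora the KO and WT values did not overlap. That is the outcome the permutation test had already counted, so it is no separate support. Among single genes, all KO arrays lay below all WT arrays in 18.3% of all tested genes and above them in 21.5%. The share of gene pairs that separate in this way was not determined. When the probe sets of each gene were averaged, the cyclin A difference was -0.69 and the Aurora difference -0.60.

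**Figure D3:**
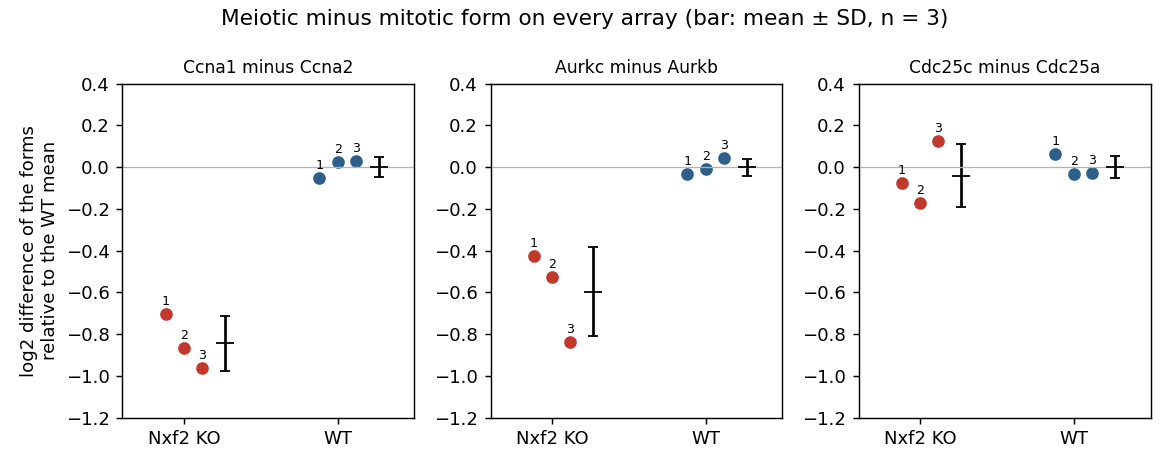
Log2 difference between the meiotic and the mitotic form on each array, relative to the WT mean, Nxf2 KO in red and WT in blue, with replicate numbers and bars for the mean ± SD (n = 3). The KO arrays lie at -0.70 or lower for cyclin A and at -0.43 or lower for Aurora, below all WT arrays, while the Cdc25 pair overlaps.

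Other cell cycle genes, listed by role and including the G1 and S phase machinery and transcription factors, were called lower in 12 of 129 tested genes (9.30%, beside 7.37% of all tested genes). None was called higher by limma (beside 2.98% of all tested genes), while 29 were lower and 9 higher at an unadjusted p under 0.05, a threshold met by 16.4% and 18.5% of all tested genes. Of 32 further kinetochore and checkpoint genes, 2 fell: Cenpn, a subunit that reads Cenpa nucleosomes, averaged 483.9 ± 12.9 in KO testes and 669.4 ± 9.74 in WT testes (limma, adjusted p = 0.00380), and Cenpu fell by 0.32 on the log2 scale. Of 27 spindle and cytokinesis genes 4 fell, the citron kinase gene Cit by 0.33, Spag5 by 0.24, the cytokinesis factor Ect2 by 0.25 and the kinesin Kif18b by 0.39. Of 11 condensin and shugoshin genes 1 fell: Haspin, whose product phosphorylates histone H3 to place the passenger complex at centromeres, averaged 678.6 ± 27.3 in KO testes and 927.7 ± 17.8 in WT testes (limma, adjusted p = 0.00380). Sgo1, the shugoshin of mitotic cohesion, had a log2 fold change of 0.34 (limma, adjusted p = 0.0648).

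Of 19 genes of M phase entry and exit 3 fell (15.8%, beside 7.37% of all tested genes called lower). Usp44, a deubiquitinase that guards Cdc20 in the checkpoint, averaged 53.8 ± 10.8 in KO testes and 107.9 ± 11.0 in WT testes, a log2 fold change of -0.93 (limma, adjusted p = 0.00952). Cdkn3 and the centrosomal kinase gene Nek2 fell by 0.38 and 0.26 on the log2 scale. Of 10 genes with roles in the meiotic divisions 1 fell, the meiotic kinetochore factor Meikin, by 0.37. Hspa2, a spermatocyte chaperone that helps to assemble active Cdk1 in mouse meiosis, had a log2 fold change of -0.14 (limma, adjusted p = 0.105).

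Of 21 genes of the G1 and S phase machinery 1 fell (4.76%, beside 7.37% of all tested genes called lower). It was the Cdk4 and Cdk6 inhibitor gene Cdkn2c, by 0.38 on the log2 scale (limma, adjusted p = 0.0173). The other 20 were not called, and the median of the list was 0.18, with E2f3 at 0.35 and Ccnd2 at 0.32 (limma, adjusted p = 0.0588 and 0.101). Of 11 transcription factors of M phase genes none was called by limma, and 1 had an unadjusted p under 0.05 (lower, beside 16.4% of all tested genes). That gene was Foxm1, with a log2 fold change of -0.27 (limma, adjusted p = 0.130), and Mybl1, the A-MYB factor of spermatocytes, had one of -0.16 with overlapping groups (limma, adjusted p = 0.390).

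Markers of germ cell stages also differed between the genotypes. In a whole testis, fewer cells of a type and less RNA per cell cannot be told apart. The counts of called markers stand beside 7.37% of all tested genes called lower and 2.98% called higher. Each sum adds the signals of all matched genes of a list, also those too dim to be tested. Bright genes therefore carry most of it. Of 9 tested genes of undifferentiated spermatogonia, which divide by mitosis, 5 rose, and the summed signal of the list was 3500 to 3529 in KO testes and 2867 to 2916 in WT testes. Of 10 genes of differentiating spermatogonia 1 rose and 1 fell, with sums of 4288 to 4445 in KO testes and 4091 to 4111 in WT testes. Of 14 pachytene spermatocyte genes 5 fell, Pgk2, Adam3, Adam2, Spag6 and Crisp2. The other 9 were not called, among them Sycp3 and Ldhc with log2 fold changes of -0.040 and -0.037, though all 14 were below 0. The sums were 12210 to 14302 in KO testes and 14835 to 15484 in WT testes. Of 15 round spermatid genes 14 fell (2805 to 2984 in KO testes, 4016 to 4774 in WT testes). Of 13 elongating spermatid genes 8 fell (1741 to 1797 in KO testes, 2458 to 3336 in WT testes). Some genes of both lists passed the dim filter, a mean signal of 20.5, only through WT. Among them were Hils1 (15.7 in KO testes, 135.9 in WT testes) and Capza3 (6.41 in KO testes, 77.6 in WT testes). Such genes could be tested only if lower in KO, so the filter fixed part of these counts.

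Somatic markers were higher or not called. Of 13 Sertoli cell genes 4 rose, beside 2.98% of all tested genes called higher. The sums were 8699 to 9309 in KO testes and 7864 to 8150 in WT testes. Of 9 Leydig cell genes 2 rose (3999 to 5582 in KO testes, 3466 to 3792 in WT testes), and of 8 endothelial genes 2 rose (338.2 to 468.9 in KO testes, 303.4 to 309.0 in WT testes). No immune, myoid or red blood cell gene of 13, 9 and 2 was called by limma, with medians of 0.46, 0.074 and 0.19, and 6, 2 and 0 of them were higher at an unadjusted p under 0.05, beside 18.5% of all tested genes. Immune sums were 2725 to 4049 in KO testes and 2038 to 2695 in WT testes, myoid sums 4644 to 5125 in KO testes and 4449 to 4658 in WT testes, and red blood cell sums 927.2 to 944.3 in KO testes and 906.3 to 999.6 in WT testes. No deposited signal was at 0 on any array, so a value above 0 does not show that a marker was present. The part of these cell types in the changes of the M phase genes was not tested.

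**Figure D4:**
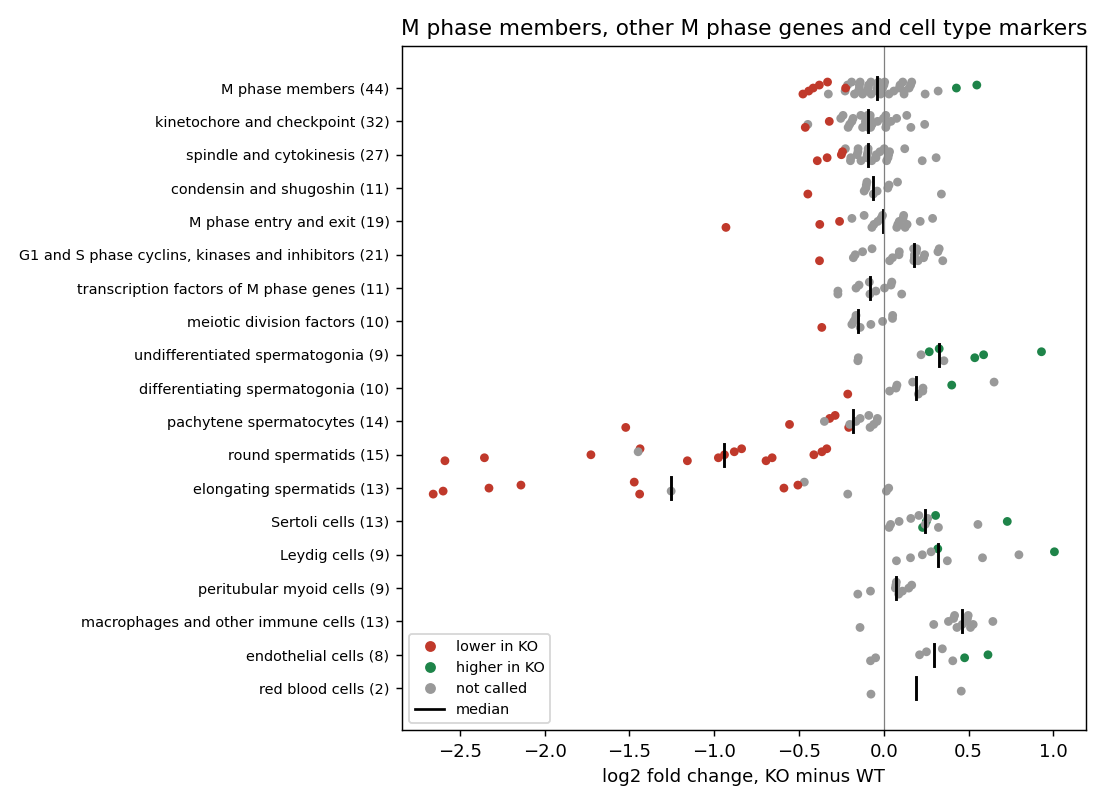
Log2 fold change, KO minus WT, of the 44 measured M phase genes (top row), of other genes of the cell cycle and of cell type markers, with the number of tested genes in brackets. Each point is a gene, red if lower and green if higher at an adjusted p under 0.05, and black bars are medians, from -1.25 for elongating spermatids to 0.46 for immune cells. The M phase genes lie between -0.48 and 0.55.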

How the data were processed

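RNA of 3 Nxf2 KO and 3 WT testes was hybridised to 1-colour arrays. Per the labels' protocols, Trizol and a purification column gave the RNA, and in vitro transcription amplified it with a biotin label. The authors deposited a table of linear signal intensities, 1 for each probe set on each array. They are MAS5 values per the submitters' processing notes, which give no version. No source used here gives the genome build of the probe sets. After 2% was trimmed from either end, each array had a mean of 150.0. Detection calls were not used, so background is not bounded for single probe sets, and the number of arrays limits the precision.

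Of 45037 probe sets that are not controls, 34945 carry 1 gene symbol, 932 several and 9160 none in the platform annotation. Symbols were brought up to date from RefSeq's gene table (GRCm38.p6), in which 34741 of the 34945 were found. Values were taken as log2(signal + 7), 7 being the 25th percentile of all values, which understates the changes of dim probe sets. Probe sets were tested if their mean reached the 40th percentile, a signal of 20.5, which left 27022. The genotypes were compared in R 4.3.3 by limma 3.58.1, with lmFit, eBayes with an intensity trend, no covariate and two-sided p-values. The fit was tested on simulated data. Pairs of forms were compared with the exact permutation test of SciPy 1.17.1. Promoters come from RefSeq, GRCm38.p6.

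The alternatives were quantile normalization, median centring, pseudocounts of 1 and 39, a dim filter at the 60th percentile or none, array weights, eBayes with no trend, a block for the replicate number, averaged probe sets of a gene, and leaving out each array. The M phase genes, the other gene lists and the tests were chosen with earlier results of these data known. The rule for named genes gave every array's value for the 6 genes in the comparison of forms and for each called M phase gene, and the rest by means, ranges and counts. From each list of other M phase genes up to 4 genes of lowest p could be named. Cell type markers were read as lists, with some spermatocyte genes also named for their calls and some spermatid genes for their signals. Of the 44 chosen probe sets 11 carry the suffix _s or _x, which marks probes shared with other transcripts. Those of Aurkb, Cdc25c, Cdc20, Plk4, Incenp and Cdca8 are among them.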

Additional observations from a re-analysis of the deposited data

How the results depend on the processing

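The 8 called M phase genes kept their direction under all 16 alternatives, and none kept its call under all of them. Of the 36 genes not called, 9 were called under at least 1 alternative and 11 changed sign under at least 1, none of the 36 being called with the opposite sign. The count of M phase genes called lower was 6, and it was 3 without the dim filter, 0 without the intensity trend (Cenpa was the 1 call, higher) and 12 with array weights. The count called higher was 2, and it was 1 without the dim filter, 1 without the trend, 5 with array weights and 0 with averaged probe sets of a gene. Over the fits that left out 1 array each, these counts ranged from 0 to 5 and from 0 to 2, and the median log2 fold change from -0.076 to -0.022. Median centring gave a median of -0.083.

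Over all probe sets, 1414 were called lower and 610 higher. The counts were 817 and 188 without the dim filter, 569 and 174 without the trend, 3446 and 3771 with array weights, and 1382 and 247 with median centring. The array weights were 8.37 for WT replicate 1 and 0.38 to 1.37 for the other arrays. Leaving out 1 array gave 143 to 1146 lower and 16 to 388 higher. The cause of these shifts was not tested, except that fewer arrays entered the last of them and more probe sets entered the fit without the filter.

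With the replicate number as a block, 2330 probe sets were lower and 2173 higher, and of the M phase genes 8 were lower and 3 higher, Ttk (adjusted p = 0.0325), Cenpe (adjusted p = 0.0206) and Cdc25b (adjusted p = 0.0419, limma) being added. Same-numbered arrays deviated together with correlations of 0.079, 0.46 and 0.27 for numbers 1 to 3, and every array but WT replicate 1 correlated best with its own number, WT replicate 1 doing so with KO replicate 3 (0.11). The study's design text calls the testes pairs but neither it nor the labels tie a pair to a number. Whether equal numbers mark those pairs is not known, so the main fit has no block.

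The cyclin A difference ranged from -0.91 to -0.79 and the Aurora difference from -0.68 to -0.48 over the fits without 1 array, and the cyclin A difference was -0.69 with averaged probe sets. The Cdc25 difference ranged from -0.12 to 0.024, turning above 0 without KO replicate 2.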
